A study of Mus musculus with 19 samples.

Results

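Arrays of mouse hippocampal RNA, 19 in all, were divided by their content of choroid plexus transcripts, and the 2 classes were chosen by 1 measured value alone. An array was called choroid-rich when its log2 value for the transthyretin gene Ttr was 13 or more and choroid-poor when it was below 13, which gave 7 choroid-rich and 12 choroid-poor arrays of 19. The mice were 6 months old and of strain C57BL/6J. They were either APP-PS1 mice (genotype APPSwe-PS1deltaE9), which carry a mutant amyloid precursor protein and a presenilin 1 lacking exon 9 and form amyloid plaques, or their wild-type littermates. From 3 to 6 months of age they ate chow with ibuprofen at 375 ppm or the same chow without it, called control chow here. The groups held 4 arrays of wild-type mice on control chow, 5 of wild-type mice on ibuprofen chow, 5 of APP-PS1 mice on control chow and 5 of APP-PS1 mice on ibuprofen chow. The labels do not name the promoter of the transgenes; in the widely used line of this genotype it is the mouse prion protein promoter. Nothing in the labels says whether an array stands for 1 mouse or a pool.

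The choroid plexus is a folded sheet of epithelium over a core of vessels and connective tissue that hangs in the brain ventricles. Its epithelial cells move ions, water, folate and other solutes to make cerebrospinal fluid, seal the blood side from the fluid side with tight junctions, and secrete carrier proteins and growth factors, of which transthyretin, the carrier of thyroxine and of retinol-binding protein, is the best known. The tissue lies against the hippocampus in the lateral ventricle, so a dissected hippocampus can bring some of it along. In bulk RNA, fewer choroid plexus cells and less RNA per such cell cannot be told apart, and "choroid-rich" below refers to transcripts only.

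Ttr itself, on whose values the classes were selected and which is left out of every count of differences between the classes, is described without a test. Its values in the choroid-rich arrays were 14.17, 14.05 and 13.77 in APP-PS1 ibuprofen replicates 1, 5 and 3, and 14.13 and 14.04 in APP-PS1 control replicates 4 and 5. The remaining choroid-rich arrays were wild-type control replicate 1 at 13.93 and wild-type ibuprofen replicate 5 at 13.72, the value nearest to the limit. Among the choroid-poor arrays the lowest value was 10.56, the median 11.22 and the highest 12.19, in wild-type control replicate 2, so that no array lay between 12.19 and 13.72. The classes averaged 13.97 ± 0.17 (SD, n = 7) and 11.25 ± 0.55 (SD, n = 12). Choroid-rich arrays occurred in all groups, 2 of 5 in APP-PS1 control, 3 of 5 in APP-PS1 ibuprofen, 1 of 4 in wild-type control and 1 of 5 in wild-type ibuprofen. Only 2 of the 7 were therefore wild-type, and each within-genotype value for wild-type below rests on those 2.

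**Figure D1:**
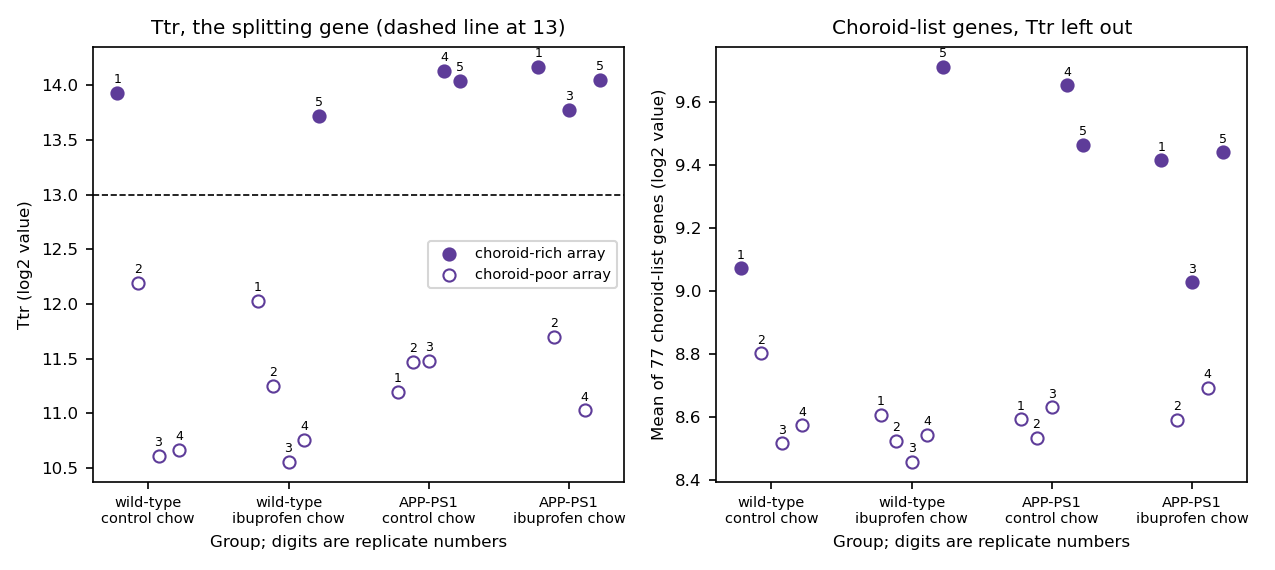
Each circle is 1 array, filled when choroid-rich, by genotype and diet group, with the replicate number above it. The left panel plots the log2 value of Ttr with the limit of 13 dashed and the right panel the mean log2 value of the 77 measured choroid-list genes; in the right panel the choroid-rich arrays lie between 9.03 and 9.71 and the choroid-poor arrays between 8.46 and 8.80.

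Some arrays stood apart from the rest before any comparison. Over all probe sets, wild-type ibuprofen replicates 5 and 1 and APP-PS1 control replicate 1 had median correlations with the other arrays of 0.974, 0.987 and just under 0.99, which was the limit used; the first of them is choroid-rich. The array medians ran from 8.06 to 8.14. Wild-type control replicate 2 and APP-PS1 ibuprofen replicate 4, both choroid-poor, were high for meningeal transcripts, with list means of 9.77 and 9.47 where the other choroid-poor arrays had at most 9.10. APP-PS1 ibuprofen replicate 2, also choroid-poor, had a mean of 8.24 for transcripts of nasal and olfactory mucosa where no other array exceeded 7.22. As a check of the labelled tissue, Prox1, the homeobox gene of dentate granule cells, lay between 10.10 and 10.90 in choroid-rich and 10.19 and 10.80 in choroid-poor arrays.

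The comparison asked which genes follow choroid plexus content across the samples. The difference between the classes was fitted with the genotype and diet group as a second factor, and a gene was counted as higher or lower when this difference was at least 0.5 on the log2 scale, or 1.41-fold. Since Ttr on the same arrays chose the classes, these differences carry standard errors (SE) but no p-values. Of 19937 genes other than Ttr, 104 were higher in the choroid-rich arrays, which is 0.522% of all genes, and 2 were lower, or 0.0100%. Over all genes the median difference was 0.01, the 5th and 95th percentiles were -0.10 and 0.14, and the median SE was 0.06. A second, stricter description asked for classes that did not overlap at all: 60 genes, or 0.301%, had all 7 choroid-rich arrays above all 12 choroid-poor ones, and 0 genes, or 0%, had them all below. When the difference was computed within genotypes, 92 of the 104 genes reached 0.5 in APP-PS1 arrays, 92 in wild-type arrays and 81 in both.

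Choroid plexus genes made up much of this set. Of 77 measured genes in 5 lists of choroid plexus genes, 46 were higher, 0 were lower and the median difference was 0.66, against 0.01 over all genes. The lists were written with earlier results of these data known, so the counts here describe them and are no independent support. The choroid lists held 32 of the 60 genes whose classes did not overlap and 26 of the 32 genes with a difference of at least 1. A further 20 choroid-list genes differed by 0.1 to 0.5, and 11 lay within 0.1 of 0. The list medians were alike in APP-PS1 arrays, at 0.67, and wild-type arrays, at 0.68.

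**Figure D2:**
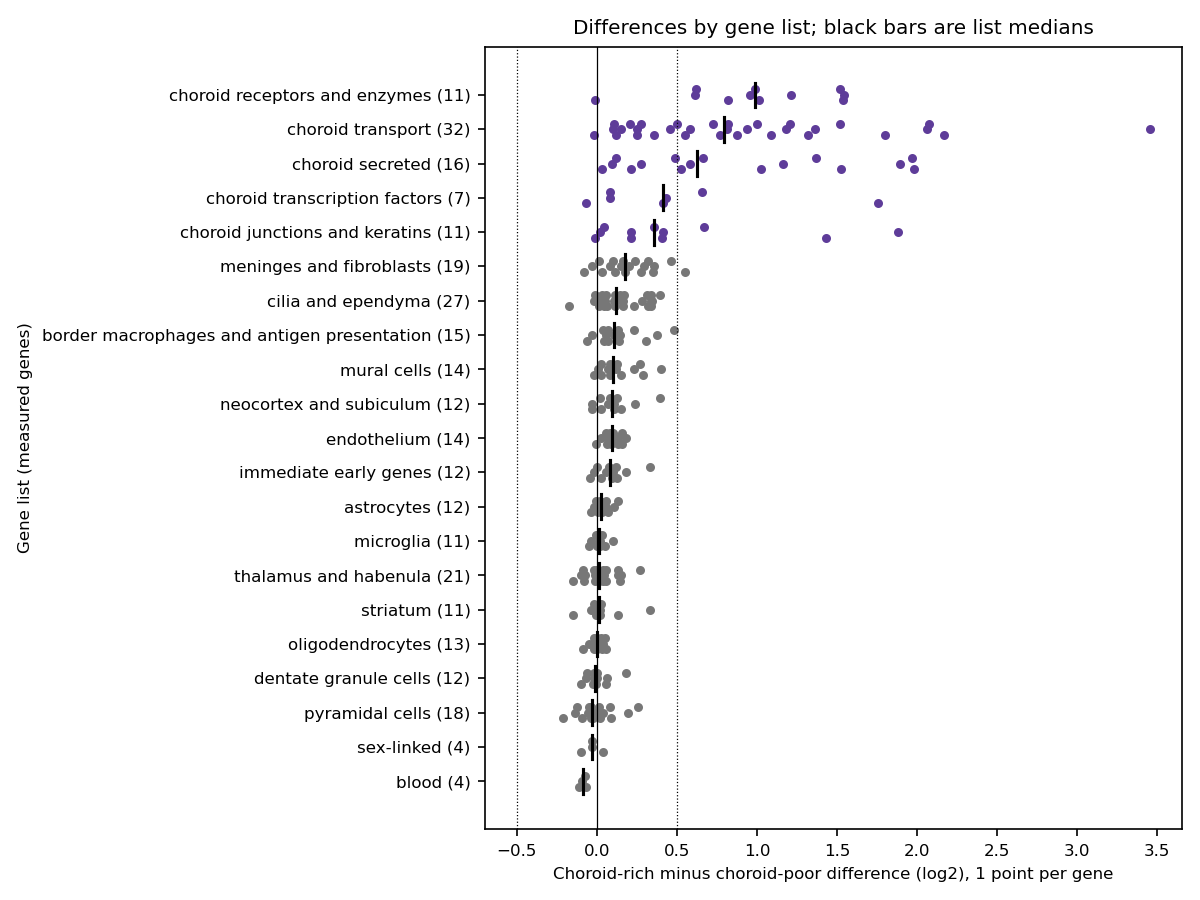
Each point is 1 gene of a list of choroid plexus genes (purple) or of another tissue or cell type (grey), placed by its choroid-rich minus choroid-poor difference on the log2 scale; black bars mark list medians, dotted lines mark differences of -0.5 and 0.5, and the number of measured genes is in brackets. The 5 choroid lists have medians from 0.36 to 0.99 and every other list shown has a median between -0.08 and 0.18.

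Transporters and channels gave the largest differences: 21 of 32 measured genes were higher, with a median of 0.79, and 17 had classes that did not overlap. Kcnj13, an inwardly rectifying potassium channel of the epithelium's apical membrane, had values of 12.68 and 12.39 in APP-PS1 control replicates 4 and 5, 12.31, 11.29 and 12.48 in APP-PS1 ibuprofen replicates 1, 3 and 5, 11.55 in wild-type control replicate 1 and 12.57 in wild-type ibuprofen replicate 5. Its choroid-poor arrays ran from 7.66 over a median of 8.54 to 10.35, the last again in wild-type control replicate 2, and APP-PS1 ibuprofen replicate 4 was next at 9.72. The classes did not overlap, and the difference of 3.46 ± 0.29 (SE), or 11-fold, was 3.47 within APP-PS1 and 3.41 within wild-type arrays. The promoter of Kcnj13, as RefSeq gives it on build GRCm38.p6 at chr1:87394680-87394979 on the minus strand, is shown because this gene differed most; the 1 capital marks the first transcribed base, after 250 bases of upstream sequence.
Kcnj13: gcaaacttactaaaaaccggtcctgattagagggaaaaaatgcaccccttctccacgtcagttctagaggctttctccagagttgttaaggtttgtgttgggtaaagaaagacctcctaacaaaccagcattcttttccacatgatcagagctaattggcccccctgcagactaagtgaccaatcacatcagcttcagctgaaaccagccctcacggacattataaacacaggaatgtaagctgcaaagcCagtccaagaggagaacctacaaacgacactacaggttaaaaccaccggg

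Clic6, a member of the chloride intracellular channel family, had values from 8.54 over a median of 9.93 to 10.38 in the choroid-rich arrays and from 7.04 over 7.47 to 8.14 in the choroid-poor ones. APP-PS1 ibuprofen replicate 3 was the lowest choroid-rich array and wild-type ibuprofen replicate 1 the highest choroid-poor one, and the classes did not overlap. The difference was 2.17 ± 0.19. Folr1, the folate receptor that carries folate into cerebrospinal fluid, spanned 9.41 to 11.22 with a median of 10.44 in choroid-rich arrays and 8.09 to 8.69 with a median of 8.38 in choroid-poor arrays. Here wild-type ibuprofen replicate 5 was the highest of all, and the difference was 2.07 ± 0.16. Slc4a5, a sodium bicarbonate cotransporter, ran from 8.75 over 9.76 to 10.24 against 7.29 over 7.51 to 7.85, without overlap, and differed by 2.06 ± 0.15.

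The other transporters with a difference of at least 1 were Tmem72, a membrane protein, at 1.80 ± 0.16, the glucose transporter Slc2a12 at 1.52 ± 0.13, the metalloreductase Steap1 at 1.36 ± 0.15, the water channel Aqp1 at 1.32 ± 0.13, the retinoid transporter Abca4 at 1.20 ± 0.13, the sulfate transporter Slc13a4 at 1.18 ± 0.27 and the potassium channel subunit Kcne2 at 1.09 ± 0.11. All of these but Slc13a4 had classes that did not overlap. Transporters of the same list with small differences were Slc26a11 at -0.02 ± 0.05, the calcium pump Atp2b3 at 0.10 ± 0.04, the bicarbonate transporter Slc4a10 at 0.12 ± 0.04 and the ascorbate transporter Slc23a2 at 0.15 ± 0.04; neurons are known to express the last 3. The sodium, potassium and chloride cotransporter Slc12a2 lay between, at 0.35 ± 0.06. Slc28a3 lay at the limit with 0.50 ± 0.08. It came to between 0.39 and 0.57 as each array was left out, below the limit for several of them. Without wild-type ibuprofen replicate 5, Slc28a3, Slc39a4 and Slco1a5 came to 0.39, 0.45 and 0.43, below the limit.

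Of receptors and enzymes, 10 of 11 were higher, with the highest median of all lists at 0.99, and 5 did not overlap. Calml4, a calmodulin-like protein, ran from 7.99 over 9.20 to 9.52 in choroid-rich arrays and from 7.18 over 7.38 to 8.30 in choroid-poor ones, a difference of 1.54 ± 0.17. Its classes overlapped, as wild-type ibuprofen replicate 1 reached 8.30, above APP-PS1 ibuprofen replicate 3 at 7.99. Ace, the angiotensin-converting enzyme, ran from 9.91 over 10.54 to 10.84 against 8.73 over 8.89 to 9.48 and also differed by 1.54 ± 0.12, without overlap. Kl, the anti-ageing protein klotho that serves as a co-receptor for a fibroblast growth factor, ran from 10.24 over 10.98 to 11.33 against 9.20 over 9.42 to 9.72 and differed by 1.52 ± 0.12. Rdh5, a retinol dehydrogenase, ran from 8.61 over 9.32 to 9.85 against 7.90 over 8.04 to 8.29 and differed by 1.21 ± 0.12. Ace, Kl and Rdh5 separated the classes completely. The serotonin receptor Htr2c and the leptin receptor Lepr differed by 0.62 ± 0.07 and 0.82 ± 0.13. The exception in the list was Lrp2, the endocytic receptor megalin, whose values lay between 7.15 and 7.41 in choroid-rich and 7.18 and 7.37 in choroid-poor arrays, a difference of -0.01 ± 0.05.

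Of secreted proteins, 10 of 16 were higher, 6 of them without overlap, with a median of 0.62. F5, coagulation factor V, ran from 7.60 over 8.82 to 9.28 in choroid-rich arrays and from 6.51 over 6.64 to 6.87 in choroid-poor ones and differed by 1.98 ± 0.17. Sostdc1, a secreted antagonist of BMP and Wnt signals, ran from 9.41 over 10.68 to 11.14 against 8.19 over 8.58 to 8.71 and differed by 1.97 ± 0.16. Ecrg4, the precursor of a secreted peptide, ran from 8.90 over 9.84 to 10.24 against 7.60 over 7.85 to 8.19 and differed by 1.89 ± 0.14. Lbp, the lipopolysaccharide-binding protein, differed by 1.53 ± 0.14, from 9.93 over 10.71 to 11.03 against 8.73 over 9.02 to 9.60. In each of these 4 genes the classes did not overlap. The collagen chain Col8a1 differed by 1.37 ± 0.15, the growth factor Igf2 by 1.16 ± 0.19 and its binding protein Igfbp2 by 1.03 ± 0.14. Spint2 and Wfdc2, both protease inhibitors, differed by 0.58 ± 0.08 and 0.53 ± 0.08, and without wild-type ibuprofen replicate 5 by 0.46 and 0.43. Vegfa at 0.03 ± 0.07 and Serpind1 at 0.09 ± 0.16 lay near 0.

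Junction proteins and keratins divided. Of 11 genes, 3 were higher, all without overlap, and the median was 0.36. Cldn2, the claudin that forms pores for cations and water in leaky epithelia, ran from 7.19 over 8.30 to 8.80 in choroid-rich arrays and from 5.87 over 6.31 to 6.51 in choroid-poor ones and differed by 1.88 ± 0.18. Cldn1 ran from 8.72 over 9.16 to 9.54 against 7.36 over 7.88 to 8.12 and differed by 1.43 ± 0.11. Krt18, a keratin of simple epithelia, differed by 0.67 ± 0.09, from 8.23 over 8.70 to 8.85 against 7.70 over 8.0 to 8.22. Its partner Krt8 differed by 0.41 ± 0.09, from 8.53 over 8.96 to 9.12 against 8.17 over 8.39 to 8.83, with overlapping classes. Cldn3, Epcam and Slc9a3r1, a claudin, an epithelial adhesion molecule and a scaffold protein, lay near 0 at -0.01 ± 0.07, 0.04 ± 0.06 and 0.02 ± 0.06.

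Among 7 transcription factors 2 were higher, with a median of 0.41. Otx2, a homeodomain factor that the choroid plexus needs to develop, ran from 8.65 over 9.83 to 10.20 in choroid-rich arrays, lowest in APP-PS1 ibuprofen replicate 3, next in wild-type control replicate 1 at 9.11 and highest in APP-PS1 control replicate 4. The choroid-poor arrays ran from 7.31 over 7.79 to 8.46, the highest in APP-PS1 ibuprofen replicate 4, without overlap, and the difference was 1.75 ± 0.18. Gmnc, a regulator of multiciliated cells, differed by 0.66 ± 0.17, with wide and overlapping classes of 6.83 to 8.71 and 6.72 to 8.39. Zic1, of the zinc finger class, ran from 8.91 over 9.75 to 10.06 against 8.58 over 9.03 to 9.81 and differed by 0.43 ± 0.16. Msx1, a homeobox factor, ran from 8.41 over 8.78 to 9.03 against 8.13 over 8.33 to 8.55 and differed by 0.41 ± 0.09. Both overlapped between the classes and lay under the limit, and Msx2, Rfx2 and Tfap2b lay within 0.1 of 0.

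Factors of the OTX family bind the motif TAATCC, which reads GGATTA on the other strand. Both strands of the RefSeq promoters, 300 bases from 250 before the start on, were searched. Of 46 higher choroid-list genes 41 had a RefSeq promoter in the table, with 59 promoters, and 7 promoters of 7 genes (Igf2, Car14, Steap2, Abca4, Ace, Vat1l and Otx2) held the motif. That is 11.9%, against 2320 of all 32851 promoters, or 7.06%. A match describes the sequence and does not show a bound site. The promoters of Ace at chr11:105967698-105967997 on the plus strand, the motif beginning at position -27 from the start, and of Otx2 at chr14:48665060-48665359 on the minus strand, the motif beginning at position -211, are shown for these matches, each being 1 of several RefSeq starts of its gene, with the motif and the first transcribed base in capitals (GRCm38.p6).
Ace: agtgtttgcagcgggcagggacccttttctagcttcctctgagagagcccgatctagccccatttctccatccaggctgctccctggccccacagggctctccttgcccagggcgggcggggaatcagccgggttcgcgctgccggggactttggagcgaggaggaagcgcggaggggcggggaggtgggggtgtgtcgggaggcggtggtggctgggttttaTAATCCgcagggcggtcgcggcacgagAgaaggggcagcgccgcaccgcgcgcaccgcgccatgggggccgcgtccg
Otx2: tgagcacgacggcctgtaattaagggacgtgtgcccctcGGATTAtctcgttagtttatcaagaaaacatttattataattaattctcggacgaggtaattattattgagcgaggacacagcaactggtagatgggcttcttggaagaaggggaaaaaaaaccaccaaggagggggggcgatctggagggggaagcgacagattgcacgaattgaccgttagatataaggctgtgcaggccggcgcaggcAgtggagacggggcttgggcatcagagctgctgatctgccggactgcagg

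**Figure D3:**
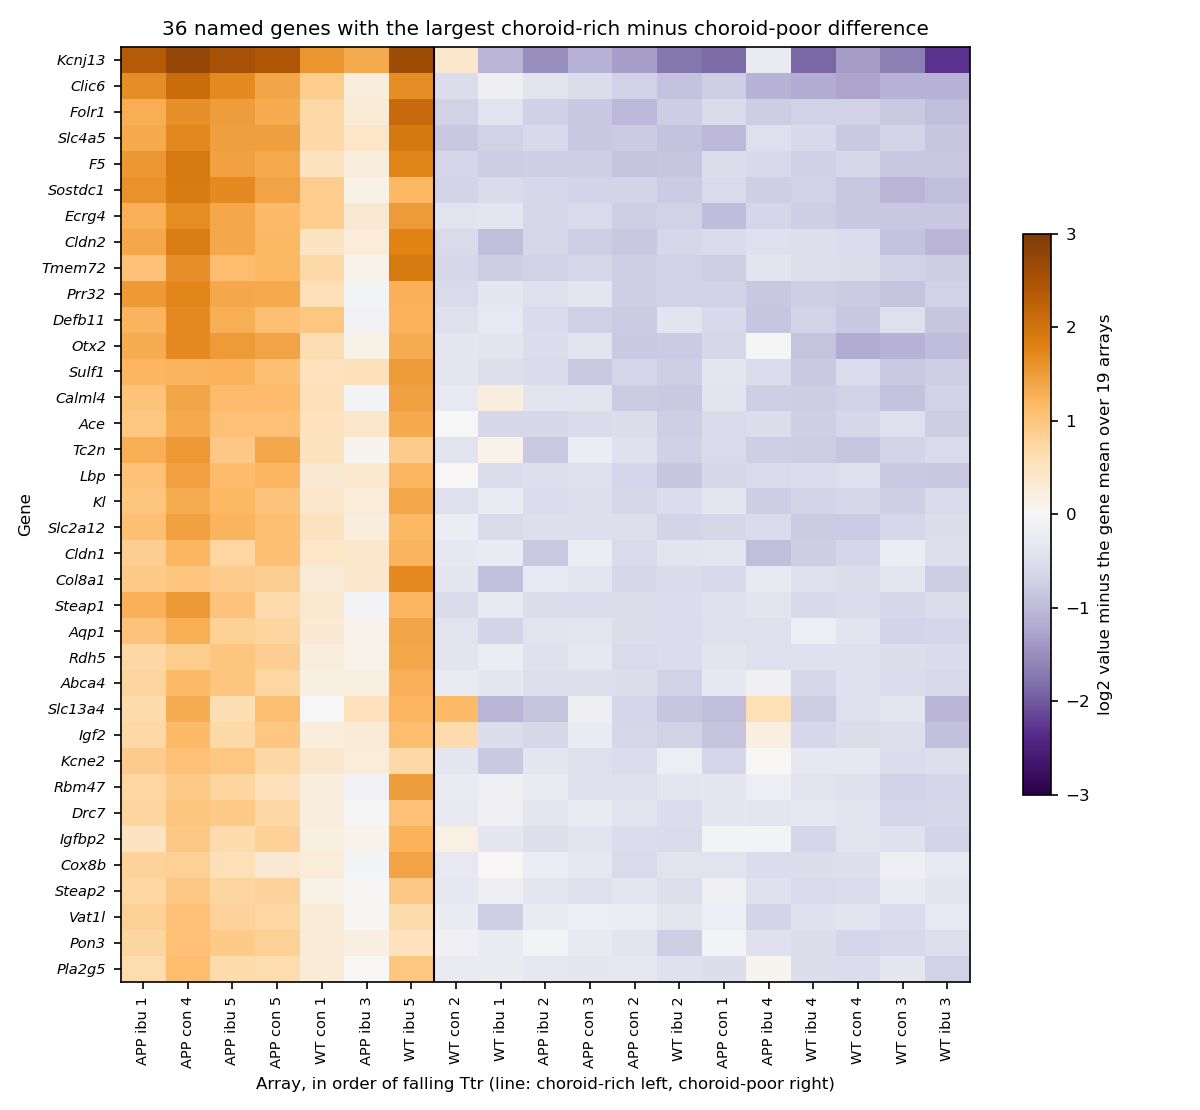
Rows are the named genes with the largest differences, columns are the 19 arrays in order of falling Ttr, and colour gives the log2 value minus the gene's mean over all arrays, orange above and purple below it. The columns left of the line are choroid-rich; APP-PS1 ibuprofen replicate 3 and wild-type control replicate 1 are the palest of them, while Slc13a4 and Igf2 are also orange in wild-type control replicate 2 on the right.

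The 46 higher choroid-list genes were not equally high in the 7 choroid-rich arrays, with an SD over these arrays of 0.60 for Folr1 and 0.54 for Kcnj13. APP-PS1 ibuprofen replicate 3 was the lowest of the 7 arrays for 34 of the 46 genes, and wild-type control replicate 1 for the other 12. Wild-type ibuprofen replicate 5 was the highest for 25 and APP-PS1 control replicate 4 for 20. The median over the 46 genes of an array's value minus the choroid-poor mean was 0.57 in APP-PS1 ibuprofen replicate 3, 0.67 in wild-type control replicate 1, 1.45 in APP-PS1 control replicate 4 and 1.64 in wild-type ibuprofen replicate 5.

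**Figure D4:**
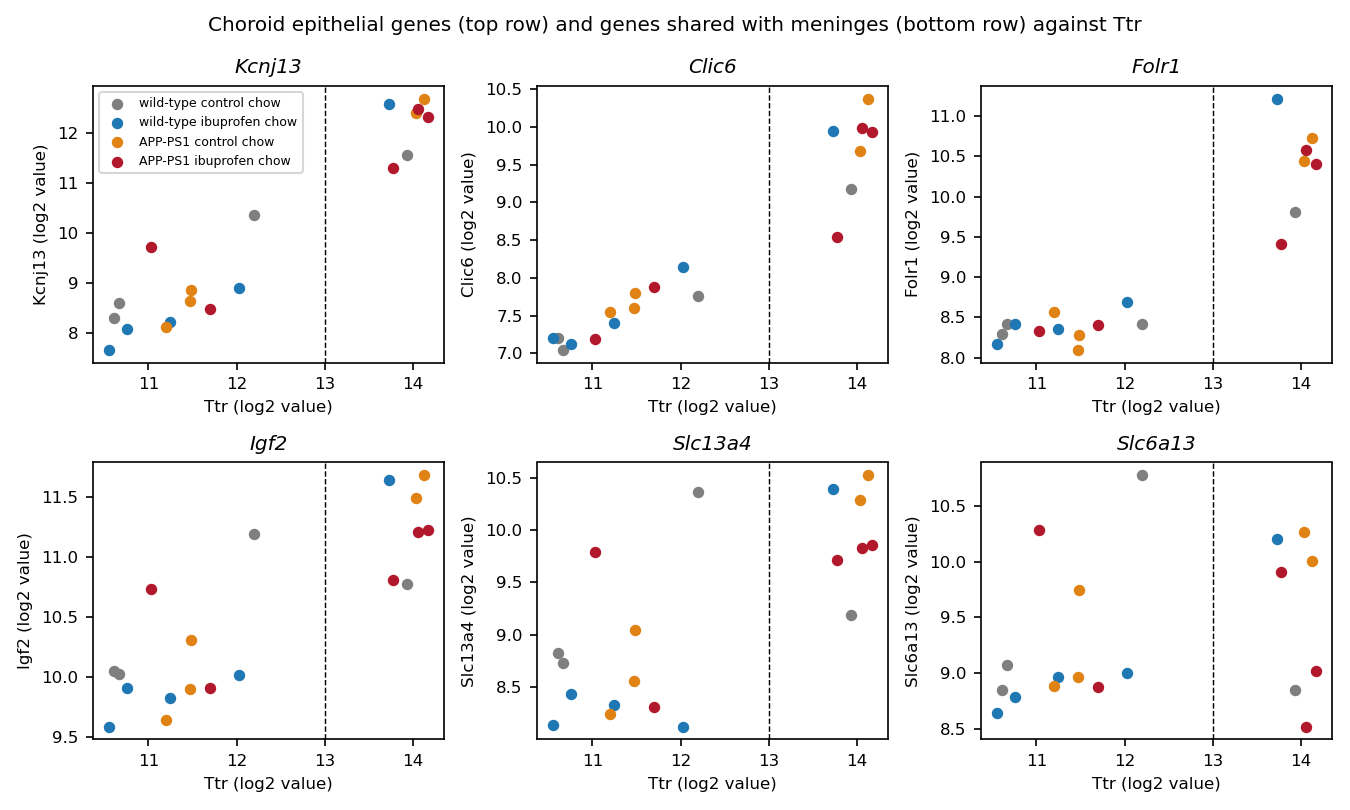
Each point is 1 array, coloured by group, with its log2 value of Ttr on the horizontal axis and of the named gene on the vertical axis; the dashed line is the limit of 13. Kcnj13, Clic6 and Folr1 in the top row separate the classes. In the bottom row, Igf2, Slc13a4 and Slc6a13 have 2 choroid-poor arrays, wild-type control replicate 2 and APP-PS1 ibuprofen replicate 4, among or above the choroid-rich ones, except that the latter array lies just under them for Igf2.

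Within the choroid-poor arrays, after removing group means, the genes most like Ttr were described by Pearson's r over 12 arrays, which share the normalization. Clic6, at 0.92, was the only choroid-list gene among the 10 highest. The others were Bche, the butyrylcholinesterase gene, at 0.94, Clhc1, Gmppa, Snx3, Dazap2, Shld2 and Gpr4 at 0.93, and Gm10373 and E330013P04Rik at 0.92. These 9 had differences between the classes from -0.06 to 0.14, while Clic6 differed by 2.17. Over all genes the median r was 0.17 and the 95th percentile 0.68; over the 104 higher genes the median was 0.52. Of the 46 choroid-list genes among them, 14 had an r above that percentile, such as Ecrg4 at 0.88, Gpx8, a glutathione peroxidase family member, at 0.84 and Kl at 0.76, and 13 had an r below 0. In the 7 choroid-rich arrays, where group means were not removed, the median r was -0.37 over all genes and 0.19 over the 104. These values are therefore not the same measure as those of the choroid-poor arrays.

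Genes that choroid plexus shares with meninges followed another pattern. The list of meningeal and fibroblast genes had 1 of 19 genes higher, a median of 0.18, and list means from 8.67 to 9.56 in choroid-rich and 8.60 to 9.77 in choroid-poor arrays. Its member Ogn, a small proteoglycan, ran from 7.23 over 9.03 to 9.52 against 6.74 over 8.46 to 9.99 and differed by 0.55 ± 0.37. This call rests on single arrays: it came to between 0.34 and 0.82 as each array was left out, below the limit for 8 of them, and to 0.18 with the meningeal list mean in the fit. Fmod and Aebp1, both proteins of the extracellular matrix, differed by 0.46 ± 0.33 and 0.36 ± 0.21. Without wild-type ibuprofen replicate 5 alone they came to 0.08 and 0.10, and Fmod came to -0.02 without the 3 arrays that stood apart and to 0.06 with the meningeal mean in the fit. The GABA and taurine transporter Slc6a13, picked after its values were seen, ran from 8.52 over 9.91 to 10.26 against 8.64 over 8.96 to 10.78, and its highest array of all was the choroid-poor wild-type control replicate 2. Igf2 had 11.19 and 10.73 and Slc13a4 10.36 and 9.79 in wild-type control replicate 2 and APP-PS1 ibuprofen replicate 4, within the choroid-rich ranges of 10.77 to 11.68 and 9.19 to 10.52 or just under them, where no other choroid-poor array passed 10.30 or 9.05. Without these 2 arrays the differences were 1.40 for Igf2 and 1.54 for Slc13a4, and with the meningeal mean in the fit they were 0.97 and 0.89, while Kcnj13 had 3.81 and 3.20. Only choroid-poor arrays were left out, and choroid-rich arrays with meningeal means up to 9.56 stayed in. For genes high in the 2 arrays, leaving them out can only raise the difference. The part of meningeal RNA in these differences was not tested beyond these values.

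Genes of cilia and ependyma, which line the ventricle beside the choroid plexus, were higher in 0 of 27, with a median of 0.12 and a range from -0.17 to 0.40. Their list means overlapped, at 7.50 to 8.05 in choroid-rich and 7.60 to 7.88 in choroid-poor arrays. Mlf1 differed by 0.40 ± 0.08, from 6.36 over 6.88 to 7.03 against 6.30 over 6.44 to 6.77. Dynlrb2, a dynein light chain, and Rsph4a, of the radial spoke, differed by 0.34 ± 0.09 and 0.34 ± 0.12. The ciliary master regulator Foxj1, outside the rule for named genes, differed by 0.17 ± 0.05. Drc7, a part of the dynein regulatory complex that was in no list, differed by 1.05 ± 0.12.

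No other list had a gene that reached 0.5 in either direction, apart from the 2 lists made after seeing the data that are described below. The medians were 0.11 for border macrophages and antigen presentation, 0.10 for mural cells, 0.09 for endothelium, for neocortex and subiculum and for immediate early genes, 0.02 for astrocytes, 0.01 for microglia, for thalamus and habenula and for striatum, and 0.00 for oligodendrocytes. Dentate granule cells had -0.01, pyramidal cells -0.03, sex-linked genes -0.03 and blood -0.08. The border list was led by the antigen-presentation genes H2-Aa, Cd74 and H2-Ab1 at 0.48 ± 0.22, 0.38 ± 0.18 and 0.31 ± 0.18. The mural list was led by the smooth muscle genes Acta2, Myh11 and Tagln at 0.40 ± 0.22, 0.29 ± 0.13 and 0.27 ± 0.14. Without the 3 arrays that stood apart H2-Aa and Acta2 came to 0.20 and 0.03. The largest differences of the remaining lists were 0.40 ± 0.16 for Tshz2 of neocortex and subiculum, 0.33 ± 0.08 for the striatal phosphoprotein gene Ppp1r1b, 0.33 ± 0.12 for the activity-regulated factor Npas4, 0.27 ± 0.12 for the thalamic glutamate transporter Slc17a6, 0.26 ± 0.10 for Coch of pyramidal cells, 0.18 ± 0.10 for Kdr of endothelium and 0.18 ± 0.09 for Npnt of dentate granule cells. Astrocytes, blood, microglia, sex-linked genes and oligodendrocytes were led by Aldh1l1 at 0.13 ± 0.09, S100a8 at -0.11 ± 0.08, C1qa at 0.10 ± 0.06, Eif2s3y at -0.10 ± 0.16 and Opalin at -0.09 ± 0.10.

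MicroRNA genes were measured as probe sets of their precursors. Mir204 lies inside Trpm3 (chr19:22137797-22995410), a cation channel gene of the transport list, and Mir211 inside Trpm1 (chr7:64153835-64269772). The mature sequences from RefSeq (GRCm38.p6) are shown because the first pair share a seed, bases 2 to 8 in capitals, as the other 3 share another.
miR-204-5p: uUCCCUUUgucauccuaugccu
miR-211-5p: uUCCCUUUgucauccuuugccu
miR-449a-5p: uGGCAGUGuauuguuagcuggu
miR-449c-5p: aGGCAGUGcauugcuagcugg
miR-34b-5p: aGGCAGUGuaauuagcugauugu

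Trpm3 differed by 0.82 ± 0.09 without overlap, from 10.27 over 10.90 to 11.20 against 9.91 over 10.09 to 10.27. Mir204 differed by 0.40 ± 0.09, from 6.20 over 6.53 to 6.65 against 5.80 over 6.03 to 6.49. Its classes overlapped, since the choroid-poor wild-type control replicate 4 and APP-PS1 ibuprofen replicate 4 had 6.49 and 6.48. Mir211, with the same seed, differed by -0.09 ± 0.09. Of the microRNAs of ciliated cells, Mir449a and Mir449c differed by -0.10 ± 0.11 and -0.18 ± 0.09 and Mir34b and Mir34c by 0.07 ± 0.08 and 0.09 ± 0.06. No microRNA gene reached 0.5.

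Of the 104 higher genes, 57 were in none of the 22 lists, and 20 genes outside the choroid lists had classes that did not overlap. Prr32, of unknown role, ran from 7.20 over 8.65 to 9.04 in choroid-rich arrays and from 6.41 over 6.60 to 6.95 in choroid-poor ones and differed by 1.77 ± 0.17. Defb11, a beta-defensin, ran from 6.16 over 7.50 to 7.95 against 5.39 over 5.61 to 5.97 and differed by 1.76 ± 0.16. Sulf1, which removes sulfate groups from heparan sulfate outside the cell, ran from 9.05 over 9.73 to 10.02 against 7.70 over 7.90 to 8.17 and differed by 1.66 ± 0.12. In these 3 genes no choroid-poor array reached the lowest choroid-rich one. Tc2n, with a C2 domain pair, differed by 1.53 ± 0.15, with APP-PS1 ibuprofen replicate 3 inside the choroid-poor range.

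The other genes named from outside the lists are given by their known roles. Enzymes of lipids and their oxidation were the paraoxonase Pon3 at 0.98 ± 0.11, the phospholipase Pla2g5 at 0.98 ± 0.12 and the leukotriene synthase Ltc4s at 0.77 ± 0.09. Secreted or matrix proteins were Pcolce and Pcolce2, enhancers of procollagen processing, at 0.88 ± 0.16 and 0.79 ± 0.10, the Wnt inhibitor Sfrp1 at 0.83 ± 0.12, the protease inhibitor A2m at 0.74 ± 0.14, the membrane protease Fap at 0.74 ± 0.09 and Lgals3bp at 0.72 ± 0.16. The RNA-binding protein Rbm47 differed by 1.06 ± 0.14, the desmosome-associated protein Perp by 0.84 ± 0.12, the transporter Slc16a12 by 0.83 ± 0.15, Cspg4b by 0.72 ± 0.12 and Tmem184a by 0.72 ± 0.14, the last only by 0.50, just under the limit, without wild-type ibuprofen replicate 5. Pon3, Ltc4s, Pcolce2, Fap and Rbm47 had classes that did not overlap.

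A list of visual-cycle and pigment genes, made after Rdh5, Abca4 and Oca2 had been seen to differ and so no evidence for itself, had 5 of 18 genes higher with a median of 0.08. They were Rdh5 and Abca4, already given, the melanosome gene Oca2 at 0.80 ± 0.10, the opsin-like Rrh at 0.69 ± 0.10 and the ion exchanger Slc24a5 at 0.65 ± 0.09. The defining pigment and retinal genes Tyr, Tyrp1, Dct, Pmel, Rpe65 and Lrat had differences from -0.07 to 0.11.

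Most of the 12 most negative differences rested on few arrays. The 2 lower genes were Bpifb9b and Scgb1c1, both secreted by nasal glands, at -0.77 ± 0.39 and -0.69 ± 0.32. Bpifb9b ran from 5.43 over 5.68 to 6.36 in choroid-rich and from 5.54 over 5.80 to 9.04 in choroid-poor arrays, and was high in APP-PS1 ibuprofen replicate 2 at 9.04 and wild-type ibuprofen replicate 4 at 8.06. Scgb1c1 was at 10.31 in the former array and between 6.18 and 7.56 in all others. Without APP-PS1 ibuprofen replicate 2 their differences were -0.30 and -0.18, and the count of lower genes was 0. Of 16 genes of nasal and olfactory mucosa, a list also made after seeing the data, 2 were lower and 0 higher, with a median of -0.28. Others of the 12 most negative genes were Cyp2g1, Bpifb9a, Bpifa1, Reg3g, Cyp2f2 and Bpifb3, at -0.49 to -0.26 and each highest in APP-PS1 ibuprofen replicate 2. The olfactory receptor gene Olfr15, at -0.31 ± 0.08, stayed between -0.34 and -0.27 as each array was left out. Gpx2, Pcgf1 and Hmgn5 at -0.32 ± 0.12, -0.28 ± 0.15 and -0.26 ± 0.12 had their low value in wild-type ibuprofen replicate 5, and without it came to -0.09, 0.03 and -0.03.

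Choroid-list genes were then set against the study's own factors, genotype and diet, which the choice of arrays did not use, in a limma fit of the 4 group means without the classes. None of the 77 genes passed an adjusted p of 0.05 for the APP-PS1 minus wild-type average, the lowest adjusted p being 0.435, and none for the ibuprofen minus control average, the lowest rounding to 1. The estimates still leaned: 70 of 77 genotype differences were above 0 with a median of 0.20, where the median of all genes was -0.01. Ttr averaged 12.71 ± 1.41 (SD, n = 10) in APP-PS1 and 11.75 ± 1.33 (SD, n = 9) in wild-type arrays, which is given without a test. Kcnj13 had a genotype difference of 1.10 ± 0.73 (limma adjusted p = 0.697). With the classes in the fit, 50 of the 77 differences were above 0 and their median was 0.03, that of Kcnj13 being 0.15. APP-PS1 arrays were choroid-rich in 5 of 10 cases and wild-type arrays in 2 of 9. Choroid-list genes follow the classes, so a smaller median with the classes in the fit is largely built in. The source of the lean was not tested. For ibuprofen the median over the 77 genes was 0.05 without the classes and -0.01 with them. Of the 5 lists, receptors and enzymes had the largest genotype median without the classes, at 0.31, which was 0.01 with them. Gmnc went the other way, at -0.51 ± 0.21 without and -0.69 ± 0.17 with the classes in the fit (limma adjusted p = 0.588 and 0.325).

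**Figure D5:**
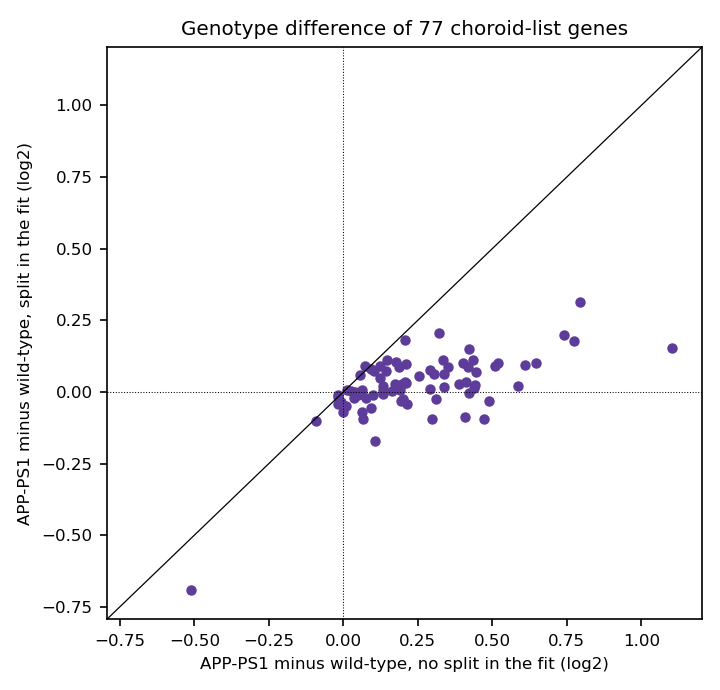
Each point is 1 of the 77 measured choroid-list genes, with its APP-PS1 minus wild-type difference (log2, average over diets) without the choroid classes in the fit on the horizontal axis and with them on the vertical axis; the line marks equal values. Most points lie to the right of 0 and near 0 on the vertical axis, with medians of 0.20 and 0.03; the lone point at the lower left is Gmnc.

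Few genes were called between genotypes, with or without choroid content held as a second factor. With the classes in the limma fit, 7 of 19938 genes passed for genotype, or 0.0351%, and 1508 had an unadjusted p under 0.05. Without them 5 genes passed, or 0.0251%, with 1535 under 0.05, and all 5 were among the 7. In the APP-PS1 arrays, the probe set of Prnp, the prion protein gene, was higher by 0.66 ± 0.03 (limma adjusted p = 1.5e-13). That of the amyloid precursor gene App was higher by 0.35 ± 0.02 (limma adjusted p = 1.6e-08). The APP-PS1 mice carry transgenes, and whether these 2 probe sets read the mouse genes or transgene transcripts was not tested. The cystatin Cst7 was higher by 0.75 ± 0.09 (limma adjusted p = 0.00014) and the chemokine Ccl3 by 0.68 ± 0.12 (adjusted p = 0.032). Prnp lay between 13.31 and 13.44 in APP-PS1 and 12.67 and 12.83 in wild-type arrays, in choroid-rich and choroid-poor arrays alike. Arpp21, a neuronal phosphoprotein, fell by 0.24 ± 0.04 (adjusted p = 0.032), and Rtl3 and Ptchd4, which passed with the classes in the fit alone, fell by 0.77 ± 0.14 and 0.31 ± 0.06 (adjusted p = 0.0496 for both, limma; 0.056 and 0.085 without the classes). None of the 7 was a choroid-list gene, and their differences between the classes were 0.02 to 0.12. The count of 7 hung on single arrays: it was 3 or 4 on leaving out any 1 of 14 arrays, 5 or 6 for 4 others and 33 without APP-PS1 ibuprofen replicate 2, and Ccl3, Arpp21, Rtl3 and Ptchd4 lost their call in 12, 12, 16 and 17 of the 19 leave-outs, while App, Prnp and Cst7 kept theirs in all 19. For ibuprofen 0 genes passed with or without the classes, or 0% (limma), with 320 and 347 under an unadjusted p of 0.05.

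Probe sets without a single gene name were counted only. Among 12146 with no symbol here 14 were higher, 18 lower and 3 without overlap between the classes, and among 1621 with several symbols 3 were higher, 0 lower and 1 without overlap. Of the named genes with more than 1 probe set, Steap2 had a second one at -0.01 beside the first at 1.0.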

How the data were processed

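RNA of hippocampus was extracted with Trizol and RNeasy columns, labelled with biotin by a sense-strand whole-transcript kit and hybridised to Affymetrix arrays, per the labels' protocols. The authors deposited 1 log2 value for each probe set and array; the submitters' processing notes name Partek 6.5 and RMA, and the RMA settings are not given in the sources used here. Arrays give no counts, so their number limits the precision. Nothing says that replicates are separate litters or extractions, so p-values measure the spread between these arrays.

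Of 35556 probe sets, 21789 had 1 gene symbol in GEO's platform annotation of 2016, 1621 several and 12146 none, and 21698 of the first matched RefSeq. Each of 19938 genes was represented by its brightest probe set on average (999 had more than 1). A linear model with 4 group terms and a choroid-rich term (14 residual degrees of freedom) gave the class difference with its SE. The genotype and ibuprofen averages were tested two-sided in limma 3.58.1 (R 4.3.3; eBayes with trend) with Benjamini-Hochberg adjustment over all genes at 0.05. The code was tested on simulated data. Figures used matplotlib 3.10.9.

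The classes, the 22 gene lists and the tests were chosen with earlier results of these data known. Open to naming were all choroid-list genes, with full values for the 4 largest differences of each list; the 3 largest of each other list; the 20 largest positive and 12 most negative differences outside the lists; the 10 genes most like Ttr in choroid-poor arrays; genes past the threshold; and App, Prnp and the microRNAs. The alternatives were other Ttr limits, Ttr as a number, centred or quantile-normalized arrays, the mean of a gene's probe sets, a filter on dim genes, array weights, another eBayes, a replicate block, single genotypes, and leaving out each array or those standing apart. Choroid-poor arrays high for meningeal or nasal transcripts were left out, and the meningeal mean was added, after seeing the data.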

Additional observations from a re-analysis of the deposited data

Results flagged for a closer look

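In 84 sets of values, each a gene or list mean within 1 class or 1 group, 12 held an array whose distance to its nearest neighbour was large against the whole range (Dixon's criterion). Chance alone gives about 1 in 20, a rate that does not hold for genes picked by their differences on these same arrays, such as the most negative ones. Within the choroid-rich arrays, Defb11 was low in APP-PS1 ibuprofen replicate 3, at 6.16. APP-PS1 control replicate 4 was high there for the nasal genes Bpifb9b, Cyp2g1 and Bpifa1, at 6.36, 8.69 and 7.15. Wild-type ibuprofen replicate 5 was low for Gpx2, Pcgf1 and Hmgn5, at 6.41, 8.49 and 7.11, and high for Reg3g, at 6.03. Within groups, the same array was far above the other wild-type ibuprofen arrays in the mean of the choroid-list genes, at 9.71. It is the only choroid-rich array of that group, so the split by Ttr had already set it apart. Cst7 was highest in wild-type ibuprofen replicate 4, at 7.27, Arpp21 was highest in APP-PS1 control replicate 2, at 11.13, and App was lowest in wild-type control replicate 4, at 13.16.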

How the results depend on the processing

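Over 38 other settings the class differences of 179 genes gave 6784 values, of which 6680 stayed within the spread of the main value, 104 moved further and 0 turned sign where the gene had been counted. Some of these settings could not move a difference, such as Ttr limits that gave the same classes, the larger size limit and the other eBayes. Their values are among the 6680, so that count is partly built in and overstates the stability. The 104 higher genes were 32 at a size of at least 1, with 26 of the 46 choroid-list genes. Without the 3 arrays that stood apart they were 76, with 40 choroid-list genes, and with the Ttr limit at 12 they were 94, also with 40. Without the 2 meningeal arrays they were 136, with 48, and in APP-PS1 and wild-type arrays alone 109 and 148. Leaving out single arrays gave 78 (without wild-type ibuprofen replicate 5) to 153 (without wild-type control replicate 1), and 41 to 50 choroid-list genes. The 60 genes without overlap were 11 with the Ttr limit at 12, 96 without the 3 arrays that stood apart and 93 without the 2 meningeal arrays. They were 60 to 106 as single arrays were left out, with 106 without APP-PS1 ibuprofen replicate 3. In APP-PS1 and wild-type arrays alone they were 198 and 430 of 19937 genes. Fewer arrays are compared there, in wild-type 2 choroid-rich against 7 choroid-poor. Chance alone then separates more genes, so these counts are not comparable with the 60. The 2 lower genes were 1 with no group term or without the dimmest genes, 0 with array weights, at a size of at least 1 or without the 2 nasal arrays, 5 without the arrays that stood apart or the meningeal ones, 6 and 50 in APP-PS1 and wild-type arrays alone, and 0 to 5 without single arrays. The 0 lower genes without overlap were 3 with centred arrays, 7 without the arrays that stood apart and 0 to 6 without single arrays. In APP-PS1 and wild-type arrays alone they were 187 and 193 of 19937 genes, with the same limit. The 7 genes called for genotype were 3 with Ttr as a number, with robust eBayes without trend or without the meningeal arrays, 4 without the arrays that stood apart, 21 with array weights, 37 without the 2 nasal arrays, and 3 to 33 without single arrays. Where not stated, the cause was not tested. App, Prnp and Cst7 were called in all 35 alternatives, and Arpp21, Ccl3, Rtl3 and Ptchd4 lost the call in 18, 15, 24 and 25. The 35 include the Ttr limits that gave the same classes, which repeat the main fit and could not lose a call.

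With the replicate number as a block, 88 genes were higher, 42 of them in the choroid lists, 2 were lower, 7 were called for genotype and 1 for ibuprofen, where the other settings run for ibuprofen, which did not take in the meningeal mean, the meningeal or nasal arrays left out as pairs or single genotypes, gave 0. Whether the numbers pair the arrays could not be settled. The 27 same-numbered pairs correlated from -0.27 to 0.60, with a mean of 0.16, higher than the -0.04 for different numbers. Of the 19 arrays, 11 correlated best with their own number.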
